A study of Mus musculus with 2 samples.

Results

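Dusp1, Dusp2, Dusp4, Dusp5, Dusp6, Dusp10 and Dusp16 encode dual specificity phosphatases, enzymes that switch MAP kinases off by removing phosphate from both a threonine and a tyrosine of the kinase's activation loop. The 7 genes were taken by symbol from the 31192 genes of a single-cell transcriptome matrix, and each symbol matched 1 row. They are described here across the leukocytes of pressure-overloaded mouse hearts. The cells came from Cdh5-CreERT2;REFLEX reporter mice that had received tamoxifen and then undergone transverse aortic constriction (TAC), a narrowing of the aorta that loads the left ventricle. In these mice the Cdh5 promoter drives a tamoxifen-inducible Cre recombinase in endothelial cells, and GFP marks the cells that the REFLEX system labelled. Dissociated hearts were sorted into 4 fractions, CD45 negative or positive by GFP negative or positive, which were pooled. The labels say that GFP-positive cells were later selected, and whether the matrix holds only those is not given. Libraries were prepared by the TAS-Seq method on BD Rhapsody cartridges. All cells share the same genotype and operation. The sources used here do not give the number, age and sex of the animals, the tamoxifen dose or the time after the operation, and no unoperated heart was analysed here.

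MAP kinase signalling passes from a MAP3 kinase to a MAP kinase kinase and then to the MAP kinases ERK, p38 and JNK, which in leukocytes drive cytokine production, survival and adhesion. The phosphatases of this family end the signal, and several are themselves early targets of it, so that their transcripts follow stimulation with a short delay. Dusp1, Dusp2, Dusp4 and Dusp5 encode nuclear, inducible enzymes, of which the Dusp5 product acts on ERK. Dusp6 encodes a cytoplasmic phosphatase of ERK, and Dusp10 and Dusp16 encode phosphatases that prefer p38 and JNK.

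The pool gave 1 transcriptome library, so there were no replicates and no difference could be tested across animals. Of 878 cells, 857 remained after 21 with over 25% mitochondrial counts were left out, and estimated counts per cell in the matrix ranged from 28406.6 to 706332. Levels are given as CPM, a gene's summed counts per 1000000 counts of the class. The 95% intervals (exact Poisson for levels, exact binomial for ratios of summed counts, Clopper-Pearson for shares) cover counting error only and are too narrow if the counts are reads rather than molecules. Clustering without the 7 genes and without the pathway genes described below gave 10 clusters, of which 9 were named by fixed marker lists. There were 273 neutrophil-like cells in clusters 0 and 2, 183 monocyte-like cells in clusters 4 and 5, 160 B cell-like cells, 103 T cell-like cells, 52 macrophage-like cells, 32 conventional dendritic-like cells and 27 NK cell-like cells. A further 27 cells in cluster 8, with a median mitochondrial share of 7.99%, stayed unnamed. Although CD45-negative cells had been pooled too, every named class was a leukocyte class, with Ptprc, which encodes CD45, between 267 CPM in macrophage-like and 1490 CPM in NK cell-like cells.

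All 7 genes were detected, in numbers of cells that differed widely: Dusp1 had a count above 0 in 789 of the 857 cells, Dusp5 in 616, Dusp2 in 606, Dusp16 in 406, Dusp6 in 330, Dusp10 in 232 and Dusp4 in 86. Among the 5 classes of at least 50 cells, Dusp1 and Dusp6 were highest in neutrophil-like cells, Dusp2 and Dusp4 in B cell-like cells, Dusp5 and Dusp16 in monocyte-like cells and Dusp10 in T cell-like cells. None was highest in macrophage-like cells. The highest class of Dusp2 and of Dusp5 was not separated from the next by its interval. With each cell weighted alike, Dusp2 moved to neutrophil-like cells by a margin of 485 against 484 CPM, so that 3 genes were highest there.

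**Figure D1:**
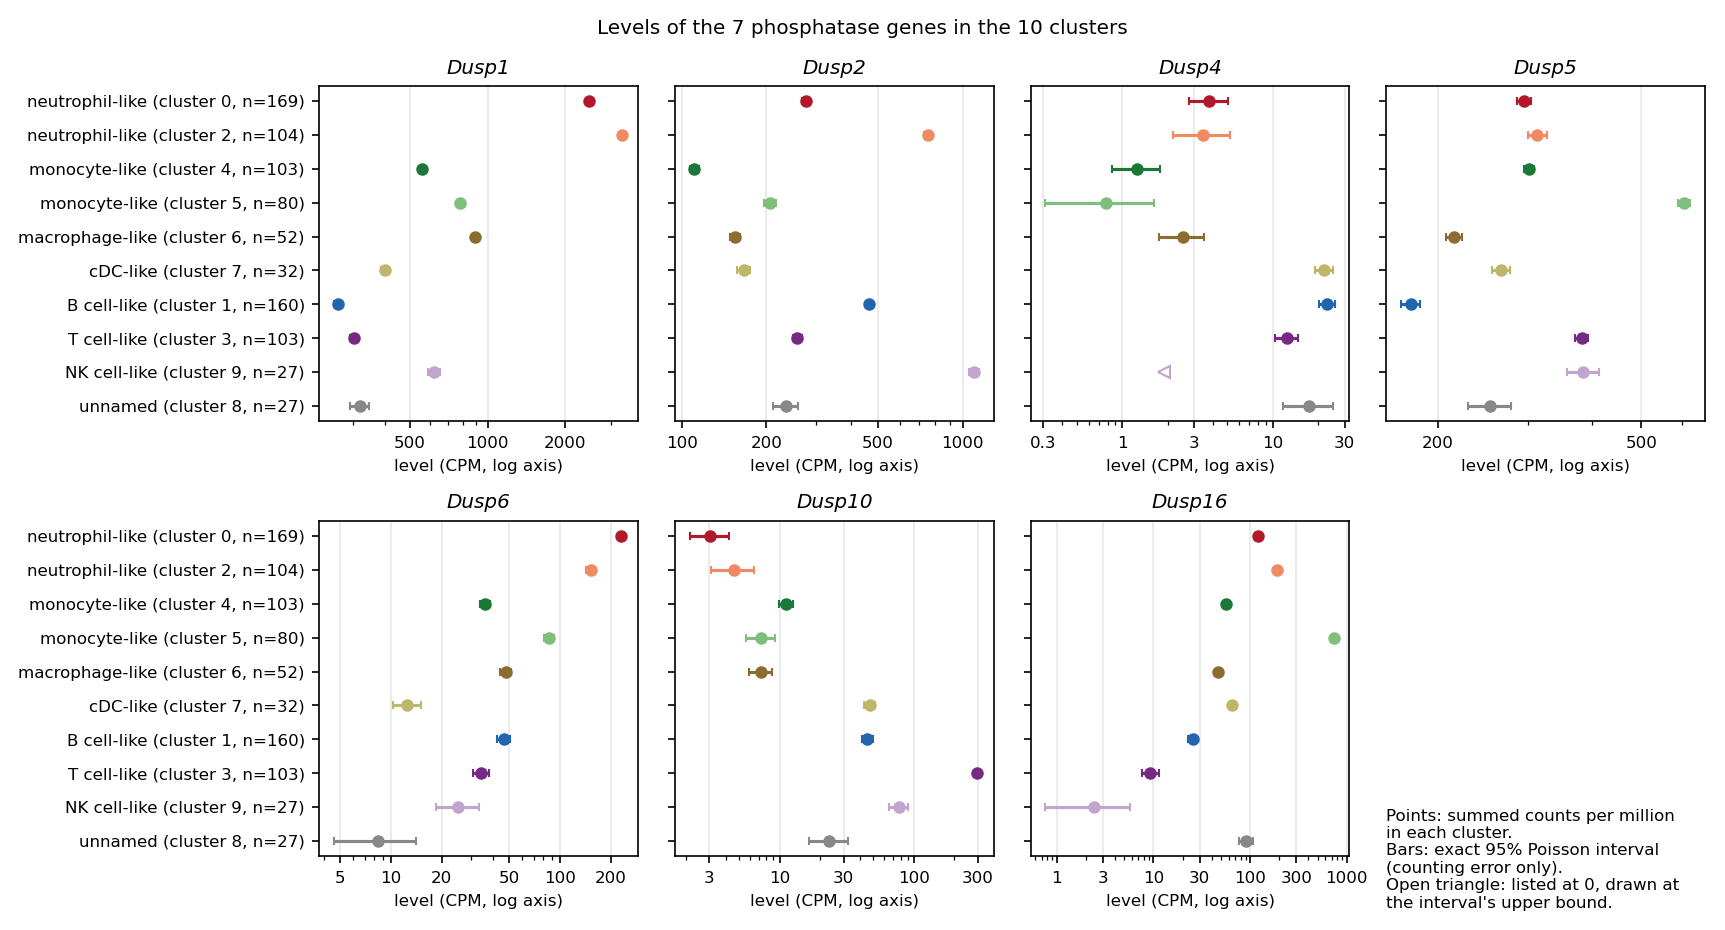
Level of each of the 7 genes in the 10 clusters, in CPM on a log axis that differs between panels, with exact 95% Poisson intervals that cover counting error only. Dusp1 reached 3319 CPM in neutrophil-like cluster 2, Dusp16 735 CPM in monocyte-like cluster 5, Dusp10 297 CPM in T cell-like cells and Dusp2 1099 CPM in NK cell-like cells.

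Dusp1, which encodes a nuclear phosphatase induced by stress, growth factors and glucocorticoids, had its 2 highest cluster levels in the neutrophil-like clusters. Its level was 3319 CPM (3276 to 3363) in cluster 2 and 2479 CPM (2451 to 2507) in cluster 0. Macrophage-like cells followed at 896 CPM, monocyte-like cluster 5 at 781 CPM, NK cell-like cells at 620 CPM and monocyte-like cluster 4 at 558 CPM. At the low end were conventional dendritic-like cells at 400 CPM, T cell-like cells at 303 CPM and B cell-like cells at 263 CPM. Of these steps, only that between the unnamed cells at 320 CPM and the T cell-like cells had overlapping intervals.

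The difference was also one of how many cells carried the transcript. After each cell was thinned to 25000 counts, Dusp1 was above 0 in 99.3% of neutrophil-like cells (97.4 to 99.9) and 93.4% of monocyte-like cells, but in 63.8% of B cell-like cells (55.8 to 71.2) and 68.9% of T cell-like cells. Without thinning the shares in neutrophil-like and B cell-like cells were 99.6% and 75%. The median neutrophil-like cell held 2444 CPM and the highest 13302 CPM, against a median of 107 CPM and a highest value of 2872 CPM in B cell-like cells. The ranges of the single cells therefore overlapped while the medians lay far apart.

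Free RNA in the pool was gauged from genes that a class should lack. S100a8, a neutrophil marker gene, had 107 CPM in B cell-like cells, 0.239% of its 44709 CPM in neutrophil-like cells. By contrast, the Dusp1 level in B cell-like cells was 9.49% of that in neutrophil-like cells. Because S100a8 is so abundant, it was above 0 in 88.8% of thinned B cell-like cells, at a median depth of 67466 counts per cell against 64327 in neutrophil-like cells. The less abundant lineage genes Cd79a, of B cells, and Cd3e, of T cells, were above 0 in 8.79% and 1.47% of neutrophil-like cells.

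The sequence before the Dusp1 start is shown because it is the only one of the 6 promoters available for these genes with the full cyclic AMP response element TGACGTCA, the site that CREB and ATF proteins bind. It was searched, with its core TGACG, on both strands in the 250 bases before each start in RefSeq (build GRCm38.p6). The full element lay 143 bases before the Dusp1 start and was present in 1.55% of 32851 promoters of the same length. Its core, which also lies within the full element, was present in the promoters of Dusp1, Dusp5 and Dusp16 and in 17.8% of all. The Dusp5 promoter alone held the CArG box, the element of serum response factor, with 2 adjacent copies starting 82 and 72 bases before the start, and 1.47% of all promoters held at least 1. Capitals mark these elements.
Dusp1, chr17:26508473-26508722, minus strand: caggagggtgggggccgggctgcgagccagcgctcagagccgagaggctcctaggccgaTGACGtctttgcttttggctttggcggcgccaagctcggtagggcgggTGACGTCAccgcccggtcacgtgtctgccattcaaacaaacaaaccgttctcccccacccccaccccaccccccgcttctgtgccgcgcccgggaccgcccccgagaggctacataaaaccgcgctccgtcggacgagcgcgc
Dusp5, chr19:53528895-53529144, plus strand: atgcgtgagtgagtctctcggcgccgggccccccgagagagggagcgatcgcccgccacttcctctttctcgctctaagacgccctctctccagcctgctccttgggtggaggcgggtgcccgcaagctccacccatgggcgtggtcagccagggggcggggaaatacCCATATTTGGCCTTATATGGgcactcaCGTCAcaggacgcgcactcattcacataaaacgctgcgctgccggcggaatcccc
Dusp16, chr6:134792629-134792878, minus strand: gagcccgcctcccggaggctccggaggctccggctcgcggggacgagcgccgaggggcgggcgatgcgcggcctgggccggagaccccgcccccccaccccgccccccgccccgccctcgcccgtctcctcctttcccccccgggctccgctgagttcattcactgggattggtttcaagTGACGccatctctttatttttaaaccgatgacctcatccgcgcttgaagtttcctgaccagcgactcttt

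These promoters lie before genes with different cell patterns: Dusp1 was highest in neutrophil-like cells and Dusp5 and Dusp16 in monocyte-like cluster 5. The promoters of Dusp2, Dusp6 and Dusp10 held none of the 3 elements. The kappaB consensus, bound by NF-kappaB, was in none of the 6 and in 7.25% of all. Looser patterns for both sites, present in 45.8% and 67.1% of all promoters, were each in 5 of the 6 and are not described further. Matches describe letters only, and no binding was measured here.

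Dusp2 encodes a nuclear phosphatase first known from activated lymphocytes, and its highest level was in NK cell-like cells. There it reached 1099 CPM (1053 to 1146), 4.34 times the level of all other cells (4.15 to 4.54), with a median cell at 756 CPM and a highest cell at 3982 CPM. It was above 0 in 96.3% of the 27 thinned NK cell-like cells (81.0 to 99.9). In the NK cell-like class 1 of the 7 genes was at least 2 times as high as in all other cells, where 18.5% of 18243 genes were. Another 3, Dusp4, Dusp6 and Dusp16, were at most 0.5 times as high, where 39.5% were, and 58% of all genes passed one bound or the other.

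B cell-like cells and neutrophil-like cells had nearly the same Dusp2 level, 464 CPM (451 to 477) and 445 CPM (435 to 454), but not the same spread over cells. In B cell-like cells 76.9% of thinned cells were above 0 and the median cell held 404 CPM. In neutrophil-like cells 52.7% were above 0 and the median cell held 29.2 CPM, with a highest cell of 5067 CPM. T cell-like cells stood at 258 CPM, macrophage-like cells at 155 CPM and monocyte-like cells at 136 CPM. Dusp2 was thus found in a larger share of B cell-like cells than of neutrophil-like cells, with a higher median cell.

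**Figure D2:**
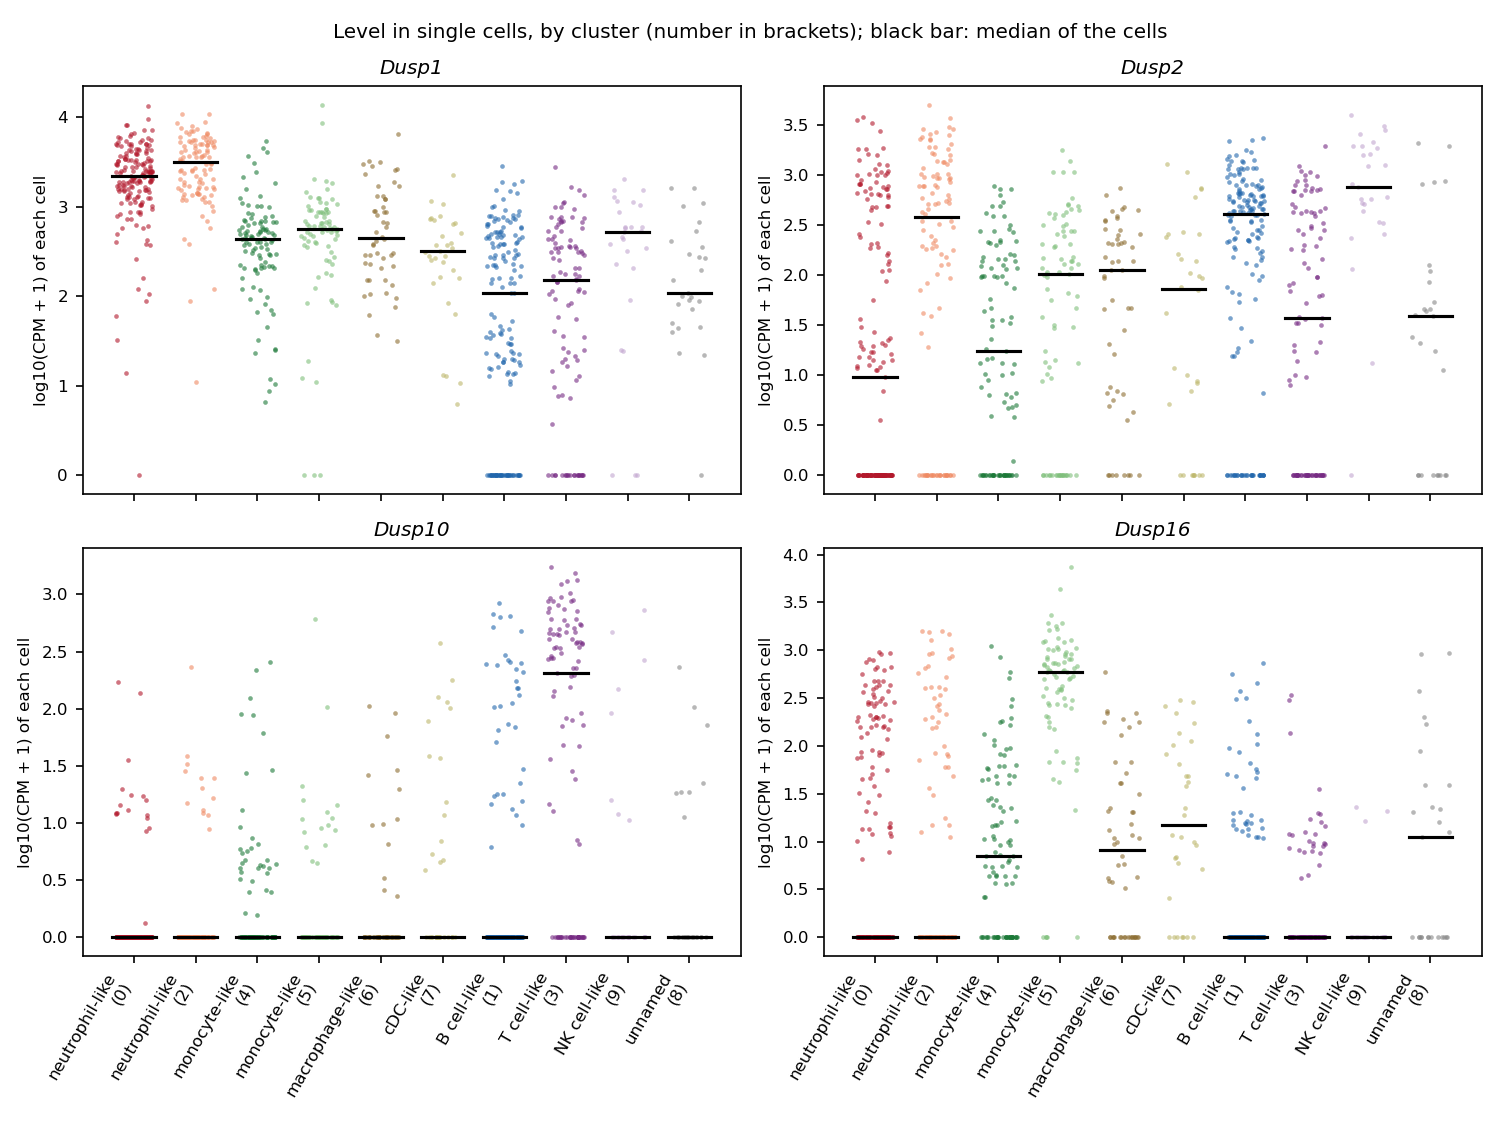
Level of Dusp1, Dusp2, Dusp10 and Dusp16 in single cells, as log10(CPM + 1), by cluster, with 1 point per cell and a black bar at the median of the cells. Nearly all neutrophil-like cells carried Dusp1, Dusp2 was spread widely in neutrophil-like cluster 0, Dusp10 was mostly at 0 outside T cell-like cells, and Dusp16 had a median of 595 CPM in cluster 5.

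Dusp4, another nuclear phosphatase of this family, was rare, and its levels rested on few cells. It had 22.8 CPM (20.2 to 25.8) in B cell-like cells, 4.09 times the level of all other cells, and 21.9 CPM (18.9 to 25.1) in conventional dendritic-like cells, and these intervals overlapped. The T cell-like value of 12.4 CPM came to 89.6% from 1 cell, and without the cell with the most Dusp4 counts the log2 ratio against all other cells went from 0.83 to -2.20. Of the neutrophil-like value of 3.66 CPM, 1 cell held 56.4%, and in B cell-like cells the leading cell held 20.8%. In NK cell-like cells Dusp4 was listed at 0, which allows up to 1.88 CPM. Dusp4 was above 0 in 9.38% of thinned B cell-like cells and 2.20% of neutrophil-like cells.

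Dusp5, whose product retains ERK in the nucleus and inactivates it, varied least over the classes. Its level was 383 CPM (376 to 390) in monocyte-like, 382 CPM (370 to 394) in T cell-like and 385 CPM (358 to 414) in NK cell-like cells. These 3 classes had overlapping intervals. Neutrophil-like cells stood at 301 CPM, macrophage-like cells at 215 CPM and B cell-like cells at 177 CPM. Dusp5 was thus within 2 times of all other cells in each of the 7 named classes, from a ratio of 0.55 in B cell-like to 1.41 in monocyte-like cells.

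Dusp6 encodes the cytoplasmic ERK phosphatase that acts as feedback on this kinase, and it shared its leading class with Dusp1. It had 202 CPM (196 to 209) in neutrophil-like cells, 4.89 times the level of all other cells (4.67 to 5.12). Monocyte-like cells at 49.6 CPM, macrophage-like cells at 48.0 CPM and B cell-like cells at 46.5 CPM had overlapping intervals. T cell-like cells had 34.3 CPM and conventional dendritic-like cells 12.5 CPM. Dusp6 was above 0 in 48.0% of thinned neutrophil-like cells. Without thinning, the median cell held 12.6 CPM and the highest 2085 CPM.

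In neutrophil-like cells 2 of the 7 genes, Dusp1 and Dusp6, were at least 2 times as high as in all other cells, where 11% of all 18243 genes were. Another 2, Dusp4 and Dusp10, were at most 0.5 times as high, where 42.9% of all genes were, and 53.9% passed one bound or the other. The remaining 3 lay between these bounds, Dusp2 at 1.94 times, Dusp16 at 1.23 times and Dusp5 at 0.97 times. The median log2 ratio of the 7 was 0.29, beside -0.47 over all genes. By the tag in the cell's name, the Dusp1 level of neutrophil-like cells ran from 2388 CPM in 28 cells named A965 to 3517 CPM in 19 cells named A953. These levels all exceeded the level in each other class, while the median mitochondrial share ran from 0.433% in cells named A953 to 4.07% in the 133 named A951. Which sorted fraction a tag stands for is not given, and fractions were not compared.

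Dusp10, whose product inactivates JNK and p38 and is known for its part in T cell responses, was concentrated in T cell-like cells. Its level there was 297 CPM (286 to 307), 16.4 times the level of all other cells (15.4 to 17.4). NK cell-like cells followed at 77.1 CPM, conventional dendritic-like cells at 47.0 CPM and B cell-like cells at 45.2 CPM. In NK cell-like cells 1 cell held 48.3% of the Dusp10 counts, and without it the level was 42.0 CPM (33.2 to 52.4), an interval that includes the B cell-like level. The dendritic-like level was 32.2 CPM without its leading cell, and the T cell-like level 287 CPM. The myeloid classes were far lower, with 10.1 CPM in monocyte-like, 7.22 CPM in macrophage-like and 3.58 CPM in neutrophil-like cells.

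Dusp10 was above 0 in 64.1% of thinned T cell-like cells (54.0 to 73.3), or 68.9% without thinning, with a median cell at 202 CPM and a highest cell at 1752 CPM. In neutrophil-like cells the share was 3.66%, between those of Cd3e and Cd79a given above, while the level was 1.21% of that in T cell-like cells, against 0.132% for Cd3e. In T cell-like cells 1 of the 7 genes was at least 2 times as high as in all other cells, against 18.4% of all genes, and 3 were at most 0.5 times as high, against 26.2%. Those 3 were Dusp1 at 0.29 times, Dusp6 at 0.45 times and Dusp16 at 0.07 times. In B cell-like cells, Dusp4 was at least 2 times as high, against 20.3% of all genes, Dusp2 came close at 1.90 times, and Dusp1 (0.25) and Dusp16 (0.19) were at most 0.5 times as high, against 25.5%. In B cell-like or T cell-like cells 2 of the 7 genes were thus at least 2 times as high, against 33.3% of all genes, and 3 without the 316 cells named A951, against 34%.

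Within the T cell-like cells, 30 had at least 50 CPM of Cd8a and Cd8b1 together and no Cd4 count, 28 had at least 50 CPM of Cd4 and no Cd8a or Cd8b1 count, and 45 were in neither set. Dusp10 had 390 CPM (368 to 412) in the Cd4 cells, 362 CPM (343 to 381) in the cells of neither set and 137 CPM (125 to 150) in the Cd8 cells. The Cd8 level was thus 0.35 times the Cd4 level (0.32 to 0.39), and 40.0% of thinned Cd8 cells were above 0 against 78.6% of Cd4 cells. These shares came from 30 and 28 cells and their intervals, 22.7 to 59.4 and 59.0 to 91.7, overlapped slightly. Dusp5 was also lower in the Cd8 cells, at 258 CPM against 411 CPM. Dusp6 was higher there, at 34.5 against 22.4 CPM, a ratio of 1.53 (1.13 to 2.09). Dusp1 (249 and 264 CPM) and Dusp2 (303 and 285 CPM) had ratios whose intervals included 1. Of the 6 members with enough counts in these sets, Dusp10 and Dusp4 were at most 0.5 times as high in the Cd8 cells, where 25.1% of 8086 genes were (43.4% in either direction), but 1 cell held 92.8% of the Dusp4 counts of the Cd4 cells.

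With a finer clustering (Leiden resolution 2), 25 of the 103 T cell-like cells separated as cells named innate lymphoid type 2-like by their markers. The whole T cell-like cluster had also passed the limit of that marker list, through Gata3, Rora and Il7r. The name alone therefore does not set the 25 apart from T cells. Dusp10 was present on both sides, at 268 CPM (256 to 280) in the 78 cells that stayed T cell-like and 360 CPM (340 to 382) in the 25. Dusp4 was at 0.21 CPM in the former and 39.7 CPM in the latter, with 90.6% of that from 1 cell. The Dusp10 level of the T cell-like class therefore did not rest on these 25 cells.

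Dusp16, whose product inactivates JNK and p38 and shuttles between nucleus and cytoplasm, was highest in monocyte-like cells at 236 CPM (231 to 242), 3.53 times the level of all other cells (3.41 to 3.67). Neutrophil-like cells had 144 CPM, conventional dendritic-like cells 65.1 CPM, macrophage-like cells 46.7 CPM and B cell-like cells 25.4 CPM. T cell-like cells had 9.30 CPM and NK cell-like cells 2.42 CPM, with 10.7% and 7.41% of thinned cells above 0, at or below the shares with Cd79a there (11.7% and 7.41%). The higher levels of Dusp16 thus lay in the myeloid classes and the unnamed cells (91.5 CPM). In monocyte-like cells it was the only 1 of the 7 genes at least 2 times as high as in all other cells, against 6.65% of all genes, and 3 (Dusp2, Dusp4 and Dusp10) were at most 0.5 times as high, against 24.7% (31.3% in either direction).

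Among the 7 genes, Dusp16 differed most between the 2 monocyte-like clusters. Cluster 5 was led by Cd300e, Ace, Cd36, Ear2, Adgre4 and Treml4, genes of patrolling monocytes, and cluster 4 by Chil3, Ly6c2 and Vcan, genes of classical monocytes. Dusp16 had 735 CPM (717 to 753) in the 80 cells of cluster 5 and 56.3 CPM (53.4 to 59.4) in the 103 cells of cluster 4, a ratio of 13.1 (12.3 to 13.8). It was above 0 in 88.8% of thinned cells of cluster 5 (79.7 to 94.7) and 33.0% of cluster 4 (24.1 to 43.0), or 93.8% and 67% without thinning. Although it had been kept out of the clustering, Dusp16 was itself among the 10 leading genes of cluster 5.

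The ratio held within each tag name, at 13.9 in cells named A951, 14.0 in A952, 7.40 in A953 and 19.3 in A965. The median cell of cluster 5 held 595 CPM and the highest 7502 CPM, that cell carrying 9.69% of the cluster's Dusp16 counts. The cells of cluster 4 were deeper, with a median of 227114 counts against 105902, which is why shares are given after thinning. Of the 8 endothelial markers listed, 3 (Pecam1, Fabp4 and Flt1) passed the naming level in cluster 5, whose summed endothelial level was 388 CPM against 21.3 to 149 CPM in the other clusters. Vwf had 28.3 CPM in cluster 5, above its level in each other cluster, Emcn had 1.03 CPM in cluster 5, and Cdh5, Kdr and Egfl7 had 0.11 CPM each there. The part of these markers in the Dusp16 level was not tested.

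Other members were also higher in cluster 5 than in cluster 4. Dusp6, at 86.6 against 36.2 CPM, had a ratio of 2.39 (2.17 to 2.64), and Dusp5, at 607 against 302 CPM, a ratio of 2.01 (1.94 to 2.08). Dusp2 (206 against 111 CPM) had a ratio of 1.86 and Dusp1 (781 against 558 CPM) one of 1.40. Dusp10 was low in both, at 7.30 and 11.1 CPM. Of the 6 members with enough counts (Dusp4 had too few), 3 differed by at least 2 times, all higher in cluster 5, where 20.9% of 12477 genes were at least 2 times as high and 38.5% differed in either direction. Leaving out the cells named A951 left 2, since the Dusp5 log2 ratio went from 1.01 to 0.83, and in cells named A952 the Dusp5 ratio was 0.90. By tag, the Dusp6 ratio ran from 0.94 in A953 to 5.48 in A952 and the Dusp2 ratio from 1.14 in A952 to 12.0 in A953, while both were 0 in the single cell of cluster 5 named doublet. At least 4 of the 7 genes were above 0 in 65% of thinned cluster 5 cells, beside 33.0% in cluster 4 and 32.4% of all cells.

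**Figure D3:**
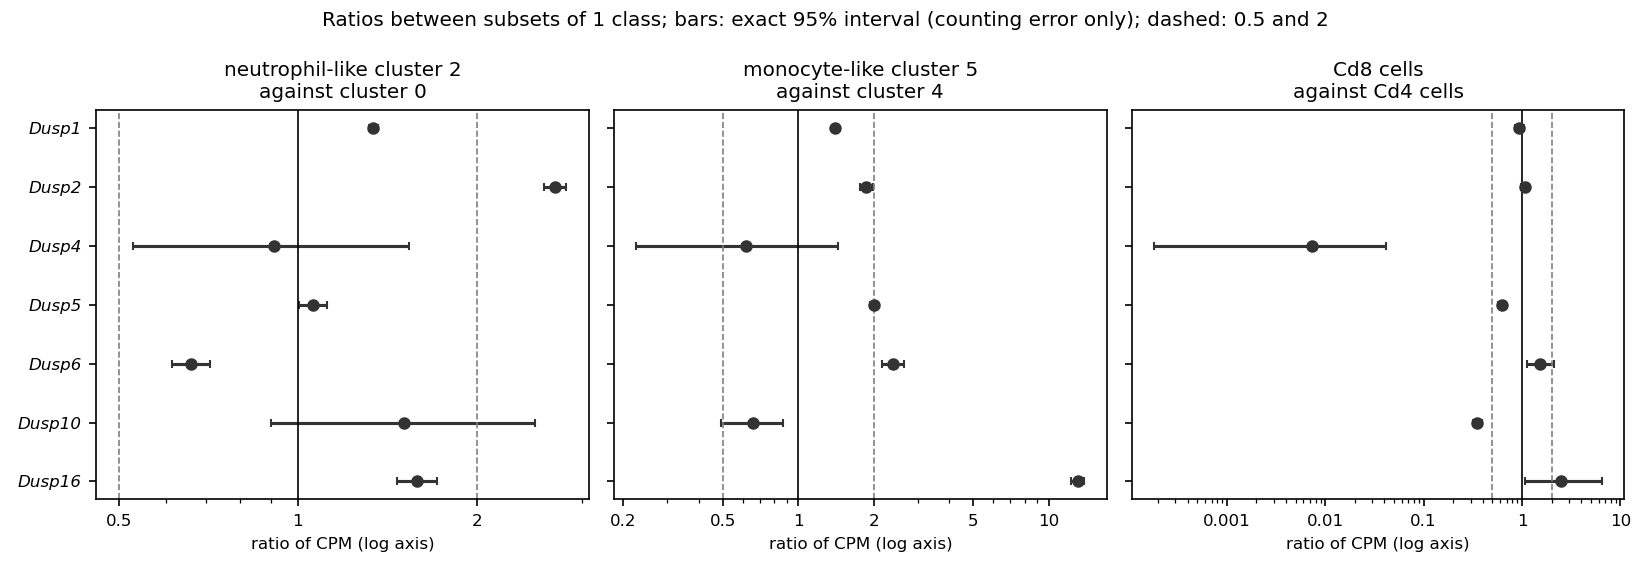
Ratios of the level of each gene between the 2 neutrophil-like clusters, between the 2 monocyte-like clusters and between the Cd8 and Cd4 sets of T cell-like cells, on log axes that differ between panels, with exact 95% intervals for counting error. Dusp16 stood at 13.1 in the monocyte-like comparison, Dusp2 at 2.71 in the neutrophil-like comparison and Dusp10 at 0.35 in the T cell-like comparison.

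Among the 7 genes, Dusp2 differed most between the 2 neutrophil-like clusters. Cluster 0 was led by the granule genes Retnlg, Ngp and Camp, and cluster 2 by Il23a, Gpr84, Icam1 and Csf1, genes known from activated neutrophils. Dusp2 had 750 CPM (730 to 771) in cluster 2 and 277 CPM (268 to 287) in cluster 0, a ratio of 2.71 (2.59 to 2.83), with 73.1% and 40.2% of thinned cells above 0 (75% and 51.5% unthinned). Median depths were alike, 59370 and 66879 counts per cell.

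Dusp1 was 1.34 times as high in cluster 2 (1.32 to 1.36) and Dusp16 1.59 times, at 190 against 119 CPM. Dusp6 had the opposite direction, at 152 against 230 CPM, a ratio of 0.66 (0.61 to 0.71). Dusp5 had pooled levels of 313 and 295 CPM, with ratios that differed in direction between tag names. Of the 7 genes 1 differed by at least 2 times, where 38.4% of 9728 genes did.

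This count moved with the cells used and with the clusters drawn. It was 2 of 5 members with enough counts without the cells named A951, where 43.2% of genes passed the limit. With the cells named doublet left out before clustering it was 5 of 7, where 45.2% did. The Dusp2 log2 ratios were 1.23 and 1.86 beside 1.44. Leaving out the cells named doublet drew new clusters, which are not clusters 0 and 2 with cells removed. By tag, the Dusp2 ratio was 3.10 in cells named A951, 2.57 in A952, 2.92 in A965 and 4.27 in cells named doublet, but 0.73 in A953, with 5 and 14 cells. The Dusp16 ratio ran from 0.96 in A951 to 8.16 in A953, and that of Dusp5 from 0.36 in A953 to 2.89 in A965. The Dusp6 ratio was below 1 in every tag name (0.43 to 0.88). In cluster 0 the Dusp16 level also differed with mitochondrial share. It was 160 CPM in the 85 cells at or below the cluster's median share and 77.6 CPM in the 84 above it. Dusp6 likewise had 278 and 180 CPM, while Dusp2 had 256 and 299 CPM. The 7 cardiomyocyte markers summed to 130 CPM in cluster 0 and 210 CPM in cluster 2, above the 14.3 to 84.3 CPM of the other clusters, and their part in these ratios was not tested.

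**Figure D4:**
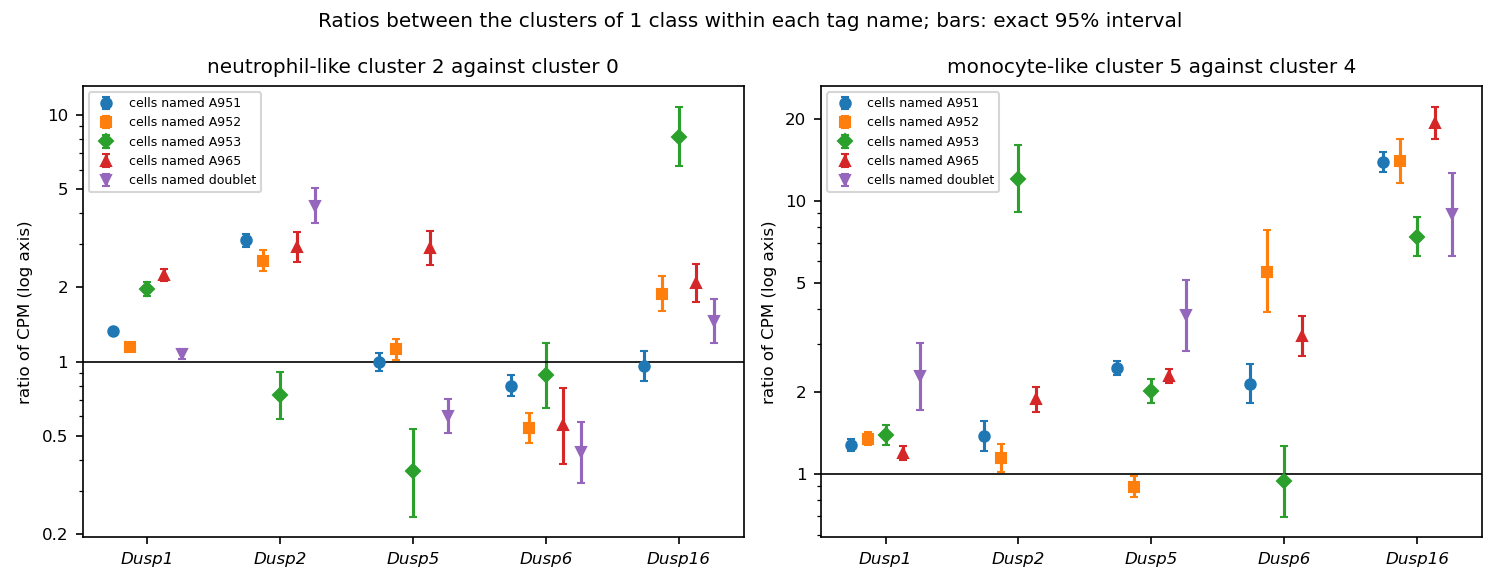
Ratios between the 2 neutrophil-like clusters and between the 2 monocyte-like clusters within each tag name, on log axes, with exact 95% intervals for counting error, for the 5 genes with enough counts. Values of 0 are not drawn. Dusp16 was higher in monocyte-like cluster 5 in every tag name (7.40 to 19.3, with cells named doublet at 8.91 from 1 and 3 cells), whereas Dusp2 was below 1 in the neutrophil-like cells named A953.

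The smaller myeloid classes were compared with all other cells in the same way. In macrophage-like cells 0 of the 7 genes were at least 2 times as high as in all other cells, against 9.54% of all genes, and 3 (Dusp4, Dusp10 and Dusp16) were at most 0.5 times as high, against 27.3% (36.8% in either direction). In conventional dendritic-like cells Dusp4 was 3.57 times as high, against 8.57% of all genes at 2 times or more, and Dusp1 (0.39) and Dusp6 (0.16) were at most 0.5 times as high, against 33.7% (42.3% in either direction). Dusp5 was above 0 in 90.6% of the 32 thinned conventional dendritic-like cells and 91.3% of cluster 5, the highest shares of this gene.

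The other typical MAP kinase phosphatases had low levels in every class. Dusp8, which acts on JNK and p38, reached 19.5 CPM in T cell-like cells and at most 4.08 CPM elsewhere. Dusp7, an ERK phosphatase, was at most 6.63 CPM and Dusp9 at most 0.18 CPM in each class. Of 10 atypical dual specificity phosphatases with enough counts, 7 were at most 0.5 times as high in neutrophil-like cells, against 42.9% of all genes, Dusp3 among them at 4.08 against 71.3 CPM. Dusp11, which acts on RNA, was even, at 81.1 against 81.9 CPM.

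The kinases above and below the phosphatases were then read from fixed lists. In neutrophil-like cells 1 of 11 MAP kinases was at least 2 times as high, against 11% of all genes, Mapk13, a p38 isoform, at 53.8 against 4.54 CPM. Of 7 MAP kinase kinases 1 was, Map2k3, an activator of p38, at 199 against 87.8 CPM. Mapk3, which encodes an ERK, was 1.33 times as high, and Mapk14, a p38 gene, had 80.7 against 55.7 CPM. Among 9 kinases activated by MAP kinases 1 was at least 2 times as high, Mknk1 at 76.2 against 30.7 CPM, and Mapkapk2, the p38 effector, had 272 against 145 CPM. In the order given, these lists held 3, 3 and 1 genes at most 0.5 times as high, against 42.9% of all genes. The median log2 ratios of these 3 lists were -0.27, -0.18 and -0.33, beside -0.47 over all genes.

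Several immediate early genes were, like Dusp1, higher in neutrophil-like cells. Of 9 early genes other than transcription factors, 6 were at least 2 times as high and 0 at most 0.5 times as high, against 11% and 42.9% of all genes. Examples were Gadd45a (334 against 68.5 CPM), Ier3 (721 against 234 CPM) and Gadd45b (736 against 282 CPM). Of 18 early and MAP kinase driven transcription factors, 4 were higher, Egr1 at 635 against 191 CPM among them, and 4 lower, Myc at 0.32 against 34.5 CPM. Fos, at 1558 against 1029 CPM, and Atf3, at 589 against 589 CPM, were not past 2 times. In macrophage-like cells 6 of these 18 were at least 2 times as high and 4 at most 0.5 times as high. The shares of all genes there were 9.54% and 27.3%. Fos at 2085 CPM and Atf3 at 1284 CPM had their highest class levels in macrophage-like cells, where Dusp1 had 896 CPM.

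Of 10 heat shock genes that rise in dissociated tissue, 0 were at least 2 times as high in neutrophil-like cells (11% of all genes). Another 7 were at most 0.5 times as high (42.9% of all genes), among them Hspa8 at 209 against 1102 CPM. Of 8 glucocorticoid responsive genes, a group that shares Dusp1 as a known target, 2 were higher and 3 lower, with Cebpd at 236 against 31.2 CPM and Tsc22d3 at 521 against 616 CPM. How far sorting and dissociation contributed to any of these levels, those of Dusp1 and the early genes included, was not tested.

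MAP3 kinases were mostly higher in monocyte-like cluster 5 than in cluster 4. Of 11, 7 were at least 2 times as high and 0 at most 0.5 times as high, against 20.9% and 17.6% of all genes. Map3k14, the NF-kappaB inducing kinase, had 214 against 42.5 CPM, Map3k1 107 against 30.0 CPM and Map3k8, an activator of the ERK branch, was 2.59 times as high. Map2k1 (125 against 41.0 CPM) and Mapk14 (139 against 41.4 CPM) were also past 2 times. Of 9 kinases activated by MAP kinases, 4 were higher and 0 lower, with Mapkapk3 at 122 against 48.8 CPM. Sgk1, a glucocorticoid responsive kinase, had 643 against 164 CPM, and Myc was nearly absent from cluster 5, at 0.45 against 29.0 CPM.

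Between the neutrophil-like clusters, Mapkapk3, a p38 effector, had 72.4 CPM in cluster 2 against 9.43 CPM in cluster 0. Mapkapk2 had 402 against 201 CPM, and Ier3 (1191 against 464 CPM), Gadd45b (1191 against 487 CPM) and Phlda1 (312 against 129 CPM) also had ratios above 2, the direction of Dusp2. Fos had nearly equal levels, at 1529 and 1573 CPM. Of the 9 other early genes 3 were at least 2 times as high in cluster 2, where 26.4% of all genes were, and 0 at most 0.5 times as high, where 12% were.

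The patterns of the 7 genes over the 10 clusters were compared by Pearson's r of log2(CPM + 1), a description over 10 points that share 1 library and differ in depth. Dusp1 and Dusp6 had the closest pair of patterns (r = 0.80), and Dusp10 ran against Dusp1 (r = -0.76) and Dusp16 (r = -0.75). Among 6126 genes with at least 50 CPM in 1 cluster, the closest to Dusp1 was Hgsnat (r = 0.96), followed by Pttg1ip, Pnpla2, Shkbp1 and Cap1. Pnpla2 was also among the genes closest to Dusp6 (r = 0.94), with Gcnt1, Agpat2, Cdc42se1 and the unnamed gene ENSMUSG00000121066. For Dusp16 they were Gngt2 (r = 0.94), Nuak2, Zbtb16, Ceacam1 and Hsd17b11, all highest in cluster 5.

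For Dusp10 the closest genes were Gramd3 (r = 0.93), Srpk1, Adss, Pim2 and Prrc2b, all highest in T cell-like cells. For Dusp5 they were Spn (r = 0.92), Lmo4, Bin2, Gak and S1pr5, highest in cluster 5, and for Dusp2 Raet1e (r = 0.95), Tomm34, Mir142hg, Agap2 and Ap2b1, of which 4 were highest in NK cell-like cells. For the rare Dusp4 they were Uba6 (r = 0.87), Cep63, Jak2, Pold1 and Mettl16. Of these, Uba6, Jak2 and Mettl16 were highest in the unnamed cells of cluster 8. The Dusp4 level there went from 17.5 to 1.24 CPM without the leading cell. With each cell weighted alike, 18 of these 35 entries recurred among the 5 genes closest to the same member, whatever their rank. The number kept ran from 1 for Dusp4 and for Dusp10 to 4 for Dusp5 and for Dusp6, with 2 for Dusp16.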

How the data were processed

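The pooled heart cells gave a transcriptome library, analysed here, and a hashtag library, not used here. The submitters' processing notes name the build GRCm39 and the tools STAR, STARsolo 2.7.10b, cutadapt 4.1 and R 4.3.1, without their roles. The deposited values are estimated counts, not normalized, of which 69.8% of those above 0 are whole, and no source used here says whether molecules or reads were counted.

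The 7 members, the 11 pathway lists (108 genes) and the 20 marker lists were chosen with earlier results of these data known. Cells with at least 500 counts, 200 genes and at most 25% mitochondrial counts were kept. Counts were scaled to 10000, log-transformed and clustered with scanpy 1.11.5 in Python 3.11.15 (2000 variable genes without members and pathway genes, 30 components, 15 neighbours, Leiden resolution 1). A cluster was named when at least 3 markers reached 50 CPM and were 2 times as high as in the other cells. Cells named doublet by the authors (46) were kept and left out as an alternative, and no doublet caller was run. Levels were computed from summed counts, and genes with at least 50 counts over the groups compared entered each comparison. A ratio of at least 2, or at most 0.5, was used to count genes. Free RNA was gauged from S100a8, S100a9, Cd79a and Cd3e. The named genes are the members, up to 4 genes a list by the ratio of the highest to the lowest class with 20 CPM added, Dusp7, Dusp8 and Dusp9, the 5 genes most like each member and the leading genes of compared clusters. Ptprc, the free RNA genes and the genes of marker lists are named as checks. Promoters were taken from RefSeq, and 6 of the 7 genes matched. The CArG box and kappaB consensus searches and the split by mitochondrial share were added after the data had been seen, as were the levels without the leading cell and the shares of all genes under each alternative. The calculation of ratios and intervals was tested on simulated data. Alternatives were a mitochondrial limit of 10%, no cells named doublet, equal weight per cell, Leiden resolutions of 0.5 and 2, clustering with the members, no top cell, no cells named A951, a ratio of 1.5 and, for shares, no thinning, another thinning seed and a count of at least 2.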

Additional observations from a re-analysis of the deposited data

How the results depend on the processing

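Of 43 recomputed counts of members, 38 stayed within 1.5 times of the value given. These include the number of members highest in neutrophil-like cells with a ratio of 1.5 as the limit. That number does not use the limit and could not change. The count of members that differ by at least 2 times between the neutrophil-like clusters went from 1 (38.4% of all genes) to 5 without cells named doublet (45.2%), 2 without the cell with the most counts of each member (40.4%), 2 without cells named A951 (43.2%) and 4 with a ratio of 1.5 as the limit (57.8%), and the same limit took the count between the monocyte-like clusters from 3 (38.5%) to 5 (58.2%). At Leiden resolution 0.5 each class was 1 cluster and gave no such count. With at most 10% mitochondrial counts, and without cells named doublet, the cells were clustered anew. The neutrophil-like and monocyte-like clusters compared there can therefore hold other cells than those described above. Of 308 recomputed log2 ratios, 10 changed sign where the interval as reported excluded a ratio of 1. Sign changes of ratios whose interval included 1 were not counted. Dusp5 between the neutrophil-like clusters went from 0.09 to -0.22 with at most 10% mitochondrial counts, -0.13 without cells named doublet and -0.0497 with equal weight per cell. Dusp10 between the monocyte-like clusters went from -0.61 to 0.14 with equal weight and 0.50 without A951. Against all other cells, Dusp2 in T cell-like cells went from -0.07 to 0.00426 with at most 10% mitochondrial counts, and Dusp4 there went from 0.83 to -1.27 with equal weight, -5.29 at resolution 2 and -2.20 without the top cell. Dusp6 in monocyte-like cells went from -0.73 to 0.30 at resolution 0.5, where 80 rather than 183 cells bore that name. Except for the Dusp4 and resolution changes, which follow from 1 cell and from the cells included, the cause was not tested. No paired analysis was possible because there is 1 pool. Dusp4 had too few counts to be compared between the monocyte-like clusters.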
